A study of Mus musculus with 34 samples.

Results

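The 8 genes described here, Foxp3, Ctla4, Ikzf2, Ikzf4, Il2ra, Klrg1, Icos and Tigit, are genes that regulatory T cells of the mouse are known to express. They were chosen by name, with earlier results of these data known. All 8 were found among the 32098 genes listed in each of 2 deposited tables of RNA-seq values. The samples are 34 libraries made from visceral fat of mice, specifically from its stromal vascular fraction, or SVF. This is the pellet left once collagenase-digested fat has been spun and the floating adipocytes taken off. All groups were male C57BL/6J mice of unaltered genotype, on their diet from 6 weeks of age and fasted for 6 hours before they were killed. HFD mice ate the high-fat diet D12492 and CHOW mice the control diets D12450B or D12450K, and the labels do not say which control diet went with which library. CHOW at 8 weeks had 4 libraries and HFD at 8 weeks had 6, from mice of 14 weeks of age. At 20 weeks there were 5 CHOW and 6 HFD libraries (26 weeks of age), and at 34 weeks 7 CHOW and 6 HFD libraries (40 weeks of age). Diet duration and age therefore cannot be told apart. The labels number the replicates but do not say whether a library is 1 mouse or several, so the p-values measure only the spread between these libraries.

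Regulatory T cells are CD4+ T cells that restrain other immune cells. In lean visceral fat of mice they are known as a large resident population that depends on the IL-33 receptor ST2 and on PPAR gamma. Foxp3 is the transcription factor that defines them, and it works with the Ikaros family members Helios (Ikzf2) and Eos (Ikzf4). Il2ra encodes CD25, the high affinity chain of the IL-2 receptor, through which IL-2 keeps these cells alive. Ctla4, Icos and Tigit are surface receptors that meet ligands on antigen-presenting cells: CTLA-4 binds CD80 and CD86, ICOS binds ICOS ligand, and TIGIT binds the poliovirus receptor CD155. KLRG1 is an inhibitory receptor for cadherins that marks terminally differentiated cells. Apart from Foxp3, none of these genes is specific to regulatory T cells in the mouse. Activated T cells express Il2ra, Ctla4, Icos and Tigit, natural killer (NK) cells express Tigit and Klrg1, and group 2 innate lymphoid cells (ILC2) express Il2ra, Icos and Klrg1. The SVF is a mixture, so fewer cells of a type and less RNA per cell cannot be told apart.

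In the mouse genome (GRCm38, gencode M21) Foxp3 (ENSMUSG00000039521.12) lies on chromosome X, 7573644 to 7595245, plus strand. Ikzf2 (ENSMUSG00000025997.13) spans chromosome 1, 69531214 to 69687245, on the minus strand, and Ikzf4 (ENSMUSG00000002578.15) spans chromosome 10, 128630843 to 128645991, also on the minus strand. Il2ra (ENSMUSG00000026770.5) is at chromosome 2, 11642807 to 11693193, plus strand. Ctla4 (ENSMUSG00000026011.13; chromosome 1, 60887000 to 60915832) and Icos (ENSMUSG00000026009.14; chromosome 1, 60977927 to 61000320) are neighbours on the plus strand, with 62094 bases between them. Tigit (ENSMUSG00000071552.4) is at chromosome 16, 43648867 to 43664146, and Klrg1 (ENSMUSG00000030114.8) at chromosome 6, 122270596 to 122282882, both on the minus strand. Foxp3 shares sequence with 4 other annotated genes. Of these, Ccdc22 on the opposite strand (7593809 to 7605517) was the most abundant, at 13.9 ± 2.25 TPM on CHOW and 21.1 ± 5.67 TPM on HFD at 20 weeks, the reverse of the order seen for Foxp3. The libraries were stranded, but the sources used here do not state whether the quantification used strand. Strand cannot part Foxp3 from Flicr, which overlaps it on the same strand and reached 1.21 TPM in its highest library. Il2ra is likewise overlapped on its own strand by Gm37881, which reached 4.00 TPM in its highest library. On HFD at 20 weeks the means were 0.670 TPM for Foxp3 and 2.76 TPM for Il2ra. The part of these overlaps in the levels of Foxp3 and Il2ra was not tested.

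RefSeq promoter sequence was at hand for 4 of the 8 genes (Foxp3, Il2ra, Ctla4 and Tigit). Shown are the 250 bases before a start site of Foxp3, of Il2ra and of Tigit (GRCm38.p6, written 5′ to 3′ along the gene). Like Foxp3, Il2ra was lower on HFD than on CHOW at 20 weeks, while Tigit did not pass the test of diet. Capitals mark the core GGAAA of nuclear factor of activated T cells (NFAT), here always on the reverse strand as TTTCC, and TTCNNNGAA, the site of STAT5, which IL-2 signalling activates. Both strands were searched.
Foxp3, upstream start, chrX:7579426-7579675, plus strand: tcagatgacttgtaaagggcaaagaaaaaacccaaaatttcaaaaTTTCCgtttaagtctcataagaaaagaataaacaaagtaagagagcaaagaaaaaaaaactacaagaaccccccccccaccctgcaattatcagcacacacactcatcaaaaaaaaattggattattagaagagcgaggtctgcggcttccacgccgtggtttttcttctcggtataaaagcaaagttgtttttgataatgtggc
Foxp3, downstream start, chrX:7580233-7580482, plus strand: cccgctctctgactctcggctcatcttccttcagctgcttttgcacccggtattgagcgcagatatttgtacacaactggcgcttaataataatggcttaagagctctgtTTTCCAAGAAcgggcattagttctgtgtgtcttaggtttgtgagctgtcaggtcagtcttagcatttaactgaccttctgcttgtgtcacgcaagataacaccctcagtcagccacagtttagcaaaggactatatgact
Il2ra, chr2:11642542-11642791, plus strand: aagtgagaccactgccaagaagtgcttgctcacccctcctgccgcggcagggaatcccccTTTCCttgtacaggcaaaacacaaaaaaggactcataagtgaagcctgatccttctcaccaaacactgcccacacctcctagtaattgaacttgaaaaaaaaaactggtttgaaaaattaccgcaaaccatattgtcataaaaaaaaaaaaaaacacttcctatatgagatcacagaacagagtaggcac
Tigit, chr16:43664185-43664434, minus strand: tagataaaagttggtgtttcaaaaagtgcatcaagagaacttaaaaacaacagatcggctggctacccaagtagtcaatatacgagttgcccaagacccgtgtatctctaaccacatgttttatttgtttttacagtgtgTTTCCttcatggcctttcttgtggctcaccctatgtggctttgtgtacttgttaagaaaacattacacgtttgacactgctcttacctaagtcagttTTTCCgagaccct
TTCNNNGAA was found only before the downstream start of Foxp3, from 139 to 131 bases before it, where it overlaps the NFAT core. That motif was in 7.02% of all 32851 promoter windows of the same length. GGAAA was found in each of the windows shown and in that of Ctla4, but also in 55.6% of all windows. Of the forkhead letters TGTTTAC (3.17% of all windows) and the RUNX letters TGTGGTT (4.40%), only TGTGGTT was found, before Tigit. These are matches of letters in a short window and say nothing of binding.

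T cell RNA was present in every library. The summed level of 20 T cell genes, none of them among the 8, was 231 ± 24.7 TPM (SD, n = 4) on CHOW and 225 ± 47.4 TPM (n = 6) on HFD at 8 weeks. At 20 weeks it was 252 ± 59.5 TPM (n = 5) and 191 ± 35.7 TPM (n = 6), and at 34 weeks 211 ± 84.2 TPM (n = 7) and 280 ± 111 TPM (n = 6). TPM is a gene's share of the transcripts of a library, corrected for transcript length, and the read depth behind it is unknown. Between 13200 and 17213 genes reached 1 TPM per library. RNA of cells from outside the SVF was high in 10 libraries. These were HFD 8 week replicates 3 (seminal vesicle genes) and 6 (hemoglobin), HFD 20 week replicates 3, 4 and 5 and HFD 34 week replicates 1 and 2 (germ cell genes), and CHOW 34 week replicates 5, 6 and 7 (Adipoq). For the 8 genes, results are given with and without these 10 where that changed a call.

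The plot of TPM by library shows the same peak for most of the 8 genes. Within the table of 8 and 20 weeks, the mean was highest on CHOW at 20 weeks for every one of them. The 8 genes together summed to 76.8 ± 24.7 TPM (n = 5) there, against 36.7 ± 6.10 TPM (n = 6) on HFD at 20 weeks and 38.8 ± 4.49 (n = 4) and 38.2 ± 12.96 TPM (n = 6) on CHOW and HFD at 8 weeks. Within the table of 34 weeks the sum was 24.5 ± 7.02 TPM (n = 7) on CHOW and 40.9 ± 25.5 TPM (n = 6) on HFD. The tables were made apart, so the 34 week levels are given beside the others without a test.

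**Figure D1:**
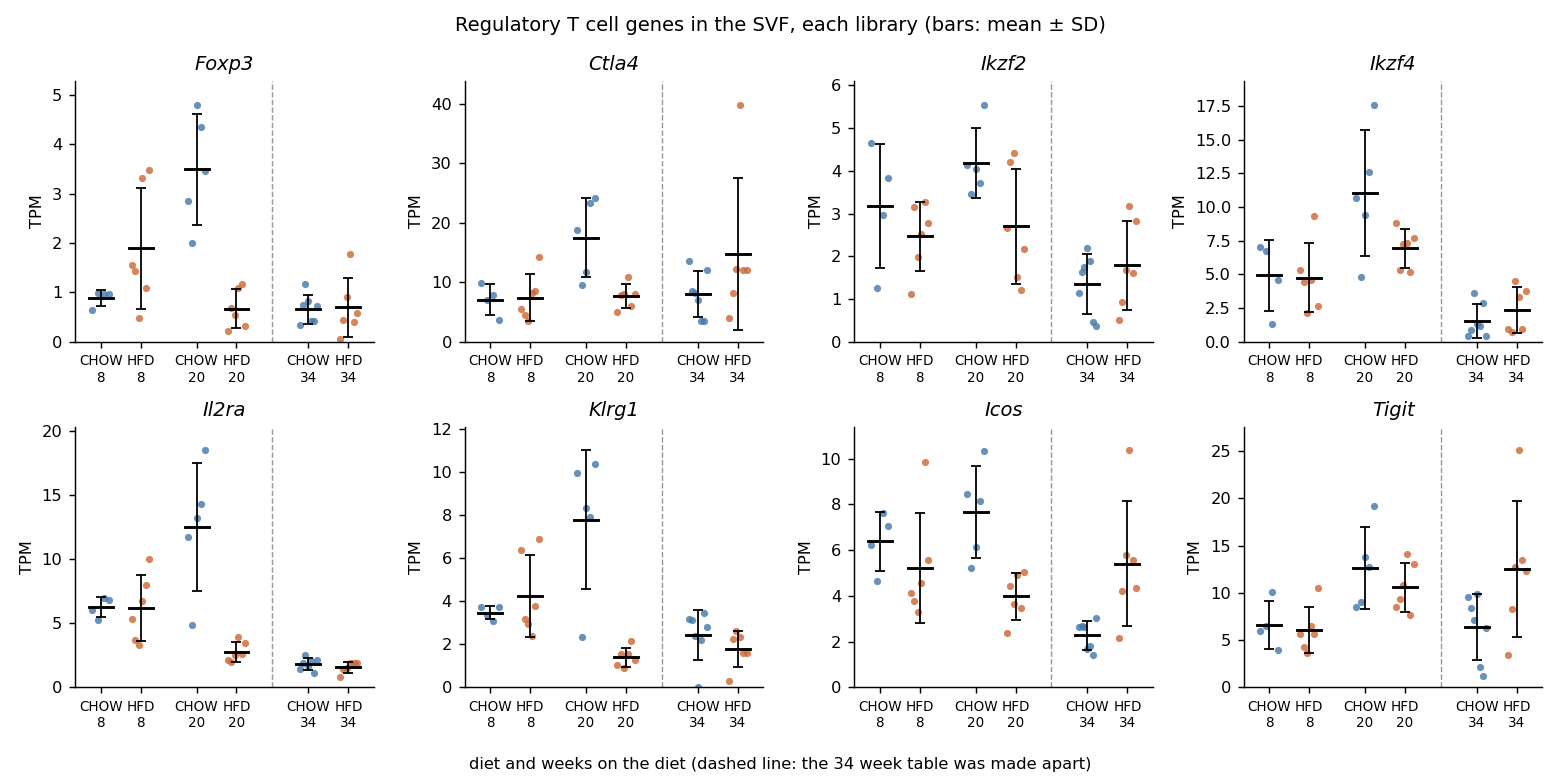
TPM of each of the 8 genes (vertical axes, from 0, with a scale of their own) in each of the 34 libraries (points), by diet and weeks on the diet, with the mean and SD of each group (bars). At 20 weeks the HFD libraries lie below the CHOW libraries for Foxp3, Il2ra, Klrg1 and Icos, and the dashed line parts the table made apart for 34 weeks.

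The first question was how HFD and CHOW differed at 20 weeks. Of the 8 genes, 5 passed the test, all of them lower on HFD than on CHOW. Foxp3, Il2ra and Klrg1 were 4.52 to 5.57 times as high on CHOW as on HFD by mean TPM, Ctla4 2.28 times and Icos 1.93 times. Ikzf2, Ikzf4 and Tigit did not pass the test. In the limma fit over all 16808 genes tested, 14.3% were called (adjusted p under 0.05 in either direction) and 4.99% were called lower on HFD. That lower share moved with scaling: 839 of 2405 calls were lower, against 1902 of 3512 with quantile normalization. The median log2 fold change of the 8 genes was -0.92, beside 0.08 for all genes. Groups that did not overlap, with HFD lower, were found for 4 of the 8 genes and for 3.69% of all genes tested. Since the 8 were chosen with earlier results of these data known, these shares are descriptions. All log2 fold changes are on the log2(TPM + 1) scale, on which low genes such as Foxp3 move less than their TPM does.

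Foxp3, the defining factor, was a low transcript. At 20 weeks its values were 2.86, 2.00, 4.80, 4.35 and 3.45 TPM in CHOW replicates 1 to 5. On HFD they ran from 0.229 through a median of 0.611 to 1.17 TPM. Every HFD library was thus below every CHOW library, and the means were 3.49 ± 1.13 (SD, n = 5) and 0.670 ± 0.389 TPM (n = 6). The log2 fold change was -1.42 (adjusted p 0.00144, SE 0.26). It held when any 1 library was left out (adjusted p 0.000743 to 0.00684) and without the libraries high in outside RNA (-1.65, adjusted p 0.0014). At 8 weeks Foxp3 was at 0.647, 0.985, 0.964 and 0.968 TPM in the CHOW libraries and ran from 0.485 through a median of 1.50 to 3.47 TPM on HFD. The HFD libraries spread to both sides of the CHOW values, and the difference of 0.51 (adjusted p 0.58, SE 0.28) did not pass. The order of the group means was CHOW at 20 weeks, HFD at 8 weeks, CHOW at 8 weeks and HFD at 20 weeks, and each overlapped its neighbour in that order.

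The genes of Helios and Eos, the partner factors, did not pass the test. Ikzf2 was at 4.13, 3.45, 4.05, 3.71 and 5.54 TPM on CHOW and from 1.22 through a median of 2.42 to 4.42 TPM on HFD at 20 weeks. The groups overlapped, since HFD replicates 2 and 3 were above 4 of the 5 CHOW libraries. Its log2 fold change was -0.55 (adjusted p 0.158, SE 0.26), with a 95% interval of -1.10 to -0.01 before adjustment. For Ikzf4 the CHOW libraries held 10.7, 4.80, 9.41, 12.6 and 17.6 TPM and the HFD libraries from 5.14 through a median of 7.33 to 8.85 TPM. CHOW replicate 2 was below every HFD library here. The difference of -0.52 (adjusted p 0.306, SE 0.33) had an interval of -1.21 to 0.17. That interval holds both no difference and one as large as that of Ctla4. Neither gene passed the test at 8 weeks, with log2 fold changes of -0.22 (adjusted p 0.869, SE 0.28) and -0.0042 (adjusted p 1, SE 0.35).

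Il2ra, the CD25 chain, had one of the largest differences between the diets at 20 weeks. It was at 11.7, 4.85, 13.2, 14.3 and 18.5 TPM on CHOW and from 1.97 through a median of 2.55 to 3.95 TPM on HFD. The highest HFD library was below the lowest CHOW library, CHOW replicate 2, which stood apart from the other 4. The log2 fold change was -1.76 (adjusted p 0.000278, SE 0.27). Leaving out any 1 library kept the call (adjusted p 1.37e-05 to 0.00152). At 8 weeks Il2ra was at 6.26 ± 0.806 TPM (n = 4) on CHOW and 6.17 ± 2.57 TPM (n = 6) on HFD, a difference of -0.09 (adjusted p 0.974, SE 0.29).

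Klrg1 followed the same course. On CHOW at 20 weeks it was at 9.98, 2.33, 8.35, 7.93 and 10.4 TPM, and on HFD from 0.886 through a median of 1.40 to 2.14 TPM. CHOW replicate 2 was again the lowest of its group and the groups did not overlap. The change was -1.77 (adjusted p 0.000334, SE 0.28), and leaving out any 1 library kept the call (adjusted p 6.06e-06 to 0.00189). At 8 weeks the difference was 0.16 (adjusted p 0.935, SE 0.30). In CHOW replicate 2 of 20 weeks the summed level of 10 macrophage genes was 12622 TPM, against 5277 to 8940 TPM in the other CHOW libraries and 9463 to 16798 TPM in the HFD libraries. Its part in the lower levels was not tested. Foxp3, Il2ra and Klrg1 kept their calls without this library.

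Of the receptors for ligands on other cells, Ctla4 and Icos were lower on HFD and Tigit did not pass. Ctla4 was at 18.8, 9.54, 11.8, 23.3 and 24.1 TPM on CHOW and from 5.00 through a median of 8.02 to 10.9 TPM on HFD. HFD replicate 4 was above CHOW replicate 2, so the groups overlapped. Its log2 fold change was -1.04 (adjusted p 0.0267, SE 0.30), and the call was lost without CHOW replicate 1 (adjusted p 0.0515), 4 (0.0804) or 5 (0.0826) or HFD replicate 1 (0.0505) or 5 (0.0504). Icos was at 8.45, 5.23, 6.15, 8.16 and 10.3 TPM on CHOW and from 2.36 through a median of 4.05 to 5.04 TPM on HFD, with no overlap by a narrow margin. It changed by -0.79 (adjusted p 0.0233, SE 0.22). That call was lost without CHOW replicate 4 (0.0591) or 5 (0.0749), and without the libraries high in outside RNA (0.0776). Tigit was at 8.47, 9.04, 13.8, 12.7 and 19.2 TPM on CHOW and from 7.70 through a median of 10.1 to 14.1 TPM on HFD, with most HFD libraries inside the CHOW range. The difference of -0.21 (adjusted p 0.606, SE 0.25) had a 95% interval of -0.72 to 0.30.

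**Figure D2:**
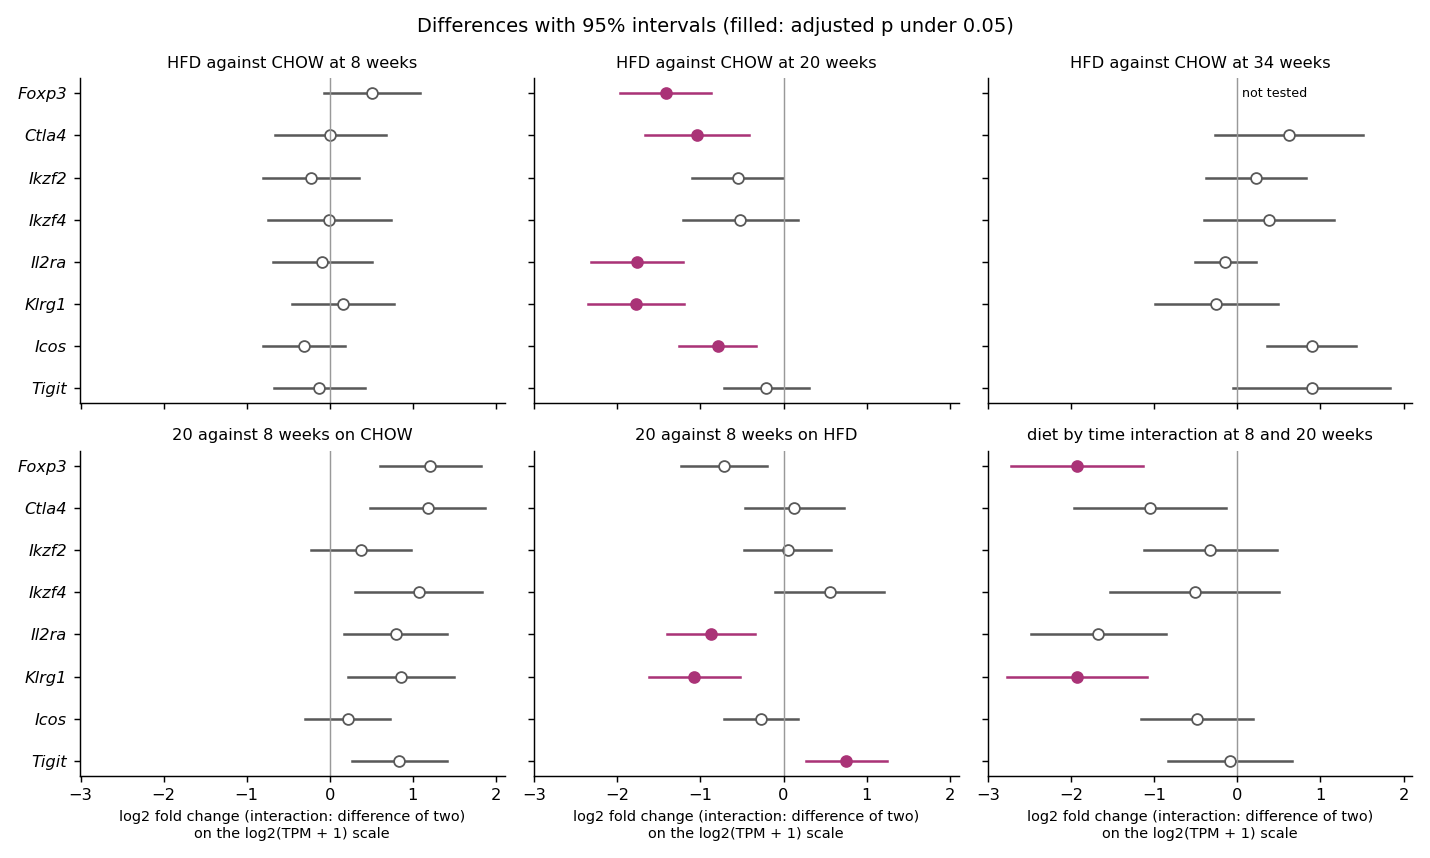
Log2 fold change on the log2(TPM + 1) scale (horizontal axes) of each of the 8 genes in the 6 comparisons, with the 95% interval of the limma fit before adjustment (lines); filled points passed an adjusted p of 0.05. The 5 filled points for HFD at 20 weeks are all below 0, and the only filled point above 0 is Tigit from 8 to 20 weeks on HFD.

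At 8 weeks none of the 8 genes was called by limma, and none had an unadjusted p under 0.05. Across all genes 0.0238% were called. The largest difference was that of Foxp3, given above, and the other 7 lay between -0.31 (Icos) and 0.16 (Klrg1) on the log2 scale. None of the 8 was called under any alternative setting or with any 1 library left out. The intervals were wide: that of Foxp3 ran from -0.07 to 1.09 and that of Ikzf4 from -0.74 to 0.73.

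The second question was how the genes changed with time on each diet. On CHOW the means of all 8 were higher at 20 than at 8 weeks, with a median log2 fold change of 0.85 beside -0.09 for all genes. None passed the adjusted test, where 0.613% of all genes were called. Without adjustment 6 of the 8 had a p under 0.05, as did 12.5% of all genes. Foxp3 came nearest. Its CHOW libraries of 20 weeks all lay above those of 8 weeks and its mean was 3.92 times as high, with a change of 1.21 (adjusted p 0.057, SE 0.29). It was called without CHOW 20 week replicate 2 (adjusted p 0.036), after median-ratio scaling (0.0197), after quantile normalization (0.0166), with quality weights (0.00123), in the fit of the compared groups alone (0.046) and without the libraries high in outside RNA (0.0213). The others with an unadjusted p under 0.05 were Ctla4 (1.18, adjusted p 0.112, SE 0.33), Ikzf4 (1.07, adjusted p 0.202, SE 0.37), Klrg1 (0.86, adjusted p 0.223, SE 0.31), Tigit (0.84, adjusted p 0.169, SE 0.27) and Il2ra (0.80, adjusted p 0.247, SE 0.30). Without CHOW 20 week replicate 2, Il2ra (0.0456) and Klrg1 (0.0224) were called as well.

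On HFD the genes parted from 8 to 20 weeks. Il2ra and Klrg1 fell and Tigit rose, while 8.78% of all genes were called. Klrg1 went from 4.26 ± 1.91 to 1.40 ± 0.446 TPM (n = 6 in each) with no overlap, a change of -1.08 (adjusted p 0.0147, SE 0.26). It held when any 1 library was left out, but not without the libraries high in outside RNA (0.109). Il2ra changed by -0.88 (adjusted p 0.0378, SE 0.26), from 6.17 ± 2.57 to 2.76 ± 0.782 TPM, and was lost in 8 of 12 fits without 1 library (adjusted p 0.0942 at most) and without the libraries high in outside RNA (0.11). Tigit went the other way, from 6.03 ± 2.43 to 10.6 ± 2.55 TPM, a change of 0.75 (adjusted p 0.049, SE 0.23). It too was lost in 8 of 12 such fits (0.0993 at most), with both scalings (0.068 when scaled by median ratios and 0.126 by quantiles) and without the libraries high in outside RNA (0.133). Foxp3 changed by -0.72 (adjusted p 0.0729, SE 0.25) and was not called, except with both scalings (0.0494 and 0.0126), with quality weights (0.00865) and without HFD 8 week replicate 3 (0.022).

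The interaction asks whether the effect of HFD at 20 weeks differed from that at 8 weeks. It was called for Foxp3 and Klrg1, both with a more negative effect at 20 weeks, while 0.297% of all genes were called. The difference was -1.93 (adjusted p 0.0308, SE 0.38) for Foxp3 and -1.93 (adjusted p 0.0391, SE 0.41) for Klrg1. The median of all genes was 0.18, and it moved to 0.03 under median-ratio scaling and to -0.03 under quantile normalization, where both differences stayed below 0 and were called. Il2ra, at -1.67 (adjusted p 0.0838, SE 0.39), was not called, though it was under quantile normalization (0.0363), with the T cell score as covariate (0.0398) and without CHOW 20 week replicate 2 (0.00904), among other settings. Ctla4 had -1.05 (adjusted p 0.33, SE 0.44), and the other 4 lay between -0.52 and -0.09. Both calls stood near the threshold. That of Foxp3 was lost in 12 of 21 fits without 1 library (0.0859 at most) and that of Klrg1 in 15 of 21 (0.112 at most). The call of Klrg1 was also lost without the libraries high in outside RNA (0.14). With the replicate number as a block, Foxp3 (0.0602) and Klrg1 (0.0689) lost their calls and Il2ra was called (0.043).

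After 34 weeks none of the 7 genes tested was called, and 0.243% of all 13982 genes were. Foxp3 was too low to be tested. It was at 0.332, 0.741, 1.16, 0.817, 0.423, 0.420 and 0.719 TPM in CHOW replicates 1 to 7 and at 0.0545, 0.446, 0.916, 1.78, 0.409 and 0.587 TPM in HFD replicates 1 to 6, and the groups lay over each other. With no filter its difference was -0.01 (adjusted p 0.975). The lower level of Foxp3, Il2ra and Klrg1 on HFD seen at 20 weeks was not detected. Il2ra was at 1.82 ± 0.460 TPM (n = 7) on CHOW and 1.56 ± 0.435 TPM (n = 6) on HFD, a difference of -0.14 (adjusted p 0.718, SE 0.17) with an interval of -0.51 to 0.22. Klrg1, at 2.44 ± 1.17 and 1.78 ± 0.840 TPM, differed by -0.25 (adjusted p 0.755, SE 0.34) with an interval of -0.99 to 0.48. Whether the effect at 34 weeks differs from that at 20 weeks was not tested, since no test crosses the tables.

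The receptors Icos, Tigit and Ctla4 had higher means on HFD at 34 weeks, without passing. Icos was from 1.40 through a median of 2.63 to 3.05 TPM on CHOW and from 2.17 through a median of 4.96 to 10.4 TPM on HFD. All but 1 of the HFD libraries were above every CHOW library. Its difference was 0.89 (adjusted p 0.169, SE 0.25), the only one of the 7 with an unadjusted p under 0.05, beside 13.2% of all genes. It was called with quality weights (0.0387). Tigit differed by 0.90 (adjusted p 0.396, SE 0.44) and Ctla4 by 0.62 (adjusted p 0.523, SE 0.42). HFD replicate 4 held the highest value of its group for Foxp3, Ctla4, Ikzf2, Icos and Tigit, with 39.8 TPM of Ctla4 and 25.1 TPM of Tigit. It also had the highest sum of T cell genes, 477 TPM against 140 to 286 TPM in the other HFD libraries. Without it the difference of Ctla4 was 0.28 (adjusted p 0.787). With the T cell score as a covariate the differences of Ctla4 and Tigit were -0.03 and 0.23, and that of Icos was 0.56 (adjusted p 0.256). Ikzf2 (0.22, adjusted p 0.738, SE 0.28) and Ikzf4 (0.38, adjusted p 0.654, SE 0.37) did not pass.

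The T cell genes give a scale for the 8. Of all genes 14.3% were called at 20 weeks, and 4.99% were called lower on HFD. Of 20 T cell genes 3 were called, all lower on HFD, and the median of the list was -0.33. Among them were Trac, the alpha constant region of the T cell receptor (-0.73, adjusted p 0.0389, SE 0.23), and Cd4, the coreceptor of helper and regulatory T cells (-0.64, adjusted p 0.0308, SE 0.19). Cd3e, a chain of the receptor complex in all T cells, was at 3.70 ± 1.01 TPM (n = 5) on CHOW and 3.40 ± 1.04 TPM (n = 6) on HFD and differed by -0.11 (adjusted p 0.811, SE 0.24). With the mean log2(TPM + 1) of the T cell list as a covariate, 3 of the 8 genes and 646 of all genes were still called at 20 weeks: Foxp3 (-1.28, adjusted p 0.0195), Il2ra (-1.37, adjusted p 0.00389) and Klrg1 (-1.56, adjusted p 0.00651). Ctla4 (-0.50, adjusted p 0.242) and Icos (-0.43, adjusted p 0.214) were not. With the mean of the adipocyte genes as a covariate none of the 8 was called, and calls over all genes went from 2405 to 39. The log2 fold changes were then -1.45 for Foxp3 (adjusted p 0.164, SE 0.43), -1.38 for Il2ra (adjusted p 0.185, SE 0.43) and -1.33 for Klrg1 (adjusted p 0.209, SE 0.43), and that of Ikzf4, which was not called, changed sign to 0.54. That score itself differed between the groups, at 5.78 ± 0.253 on CHOW (n = 5) and 4.60 ± 0.260 on HFD (n = 6).

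Levels per T cell RNA are given as the TPM of a gene over the mean TPM of the T cell list. For Foxp3 this ratio was 0.282 ± 0.0940 (n = 5) on CHOW and 0.0707 ± 0.0426 (n = 6) on HFD at 20 weeks, with no overlap. The list includes Thy1, which stromal cells also express, so the CD3 chains Cd3d, Cd3e and Cd3g were taken as a second reference after the data were seen. Over their mean, the ratio of Foxp3 was 0.536 ± 0.178 (n = 5) on CHOW and 0.125 ± 0.0893 (n = 6) on HFD at 20 weeks. The lowest CHOW ratio, 0.338, was above the highest HFD ratio, 0.279. At 8 weeks it was 0.211 ± 0.0958 (n = 4) and 0.465 ± 0.293 (n = 6). For Il2ra the 20 week ratios were 1.87 ± 0.596 and 0.478 ± 0.121, again with no overlap. Tigit had 1.88 ± 0.311 and 1.82 ± 0.321. At 34 weeks Foxp3 had 0.115 ± 0.0459 (n = 7) and 0.0592 ± 0.0322 (n = 6). These ratios are descriptions, with no test.

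**Figure D3:**
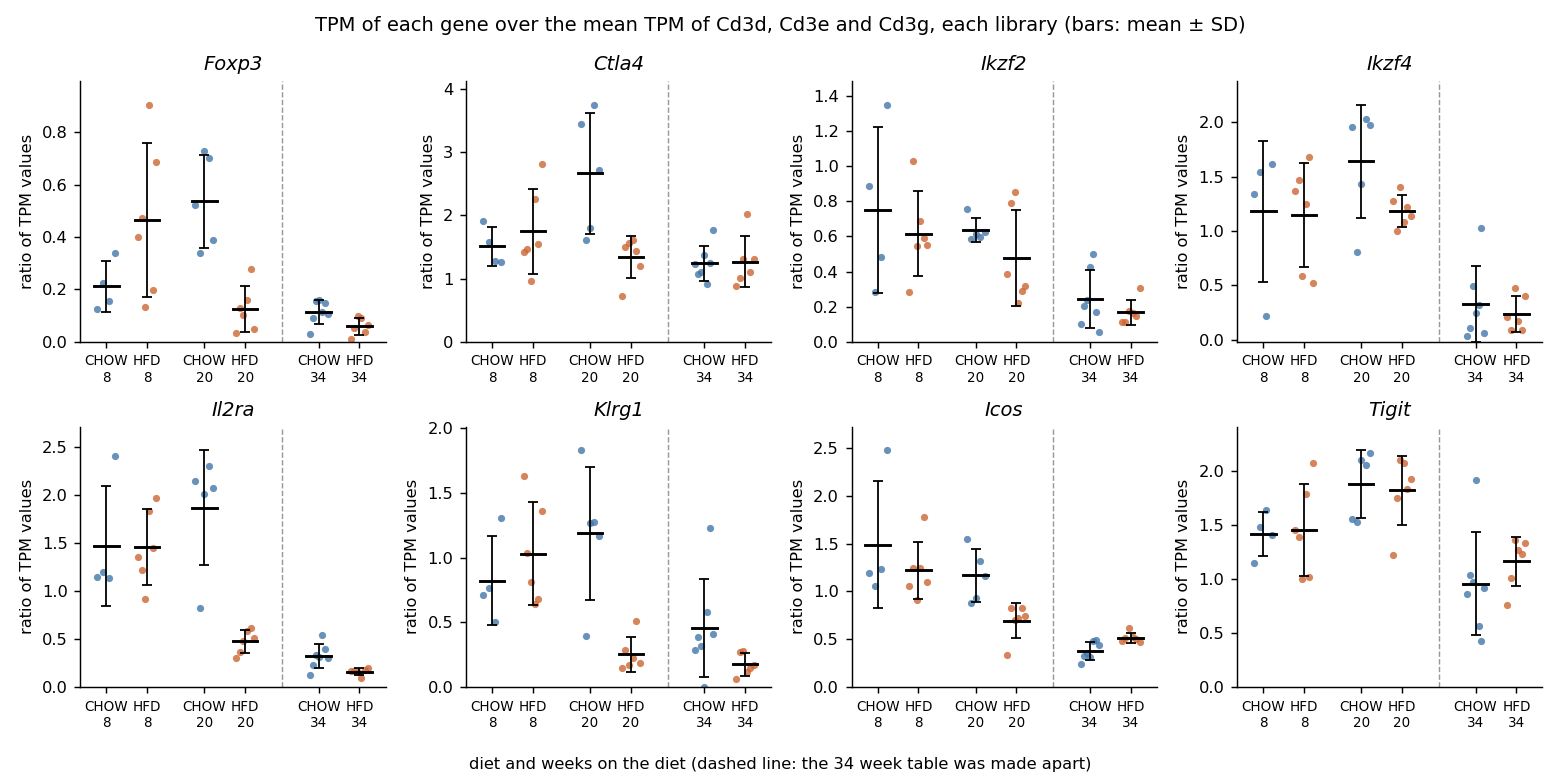
Ratio of the TPM of each of the 8 genes to the mean TPM of Cd3d, Cd3e and Cd3g (vertical axes, with a scale of their own) in each library (points), by diet and weeks, with the mean and SD of each group (bars). At 20 weeks the ratio of Foxp3 was 0.536 on CHOW and 0.125 on HFD, while that of Tigit was 1.88 and 1.82.

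Other genes known from regulatory T cells were tested as a list of 28, of which 27 passed the filter at 20 weeks. There 7 were lower and 2 higher on HFD, with a list median of -0.33, while 14.3% of all genes were called in either direction. The largest changes were those of Capg, an actin-capping protein that macrophages also express (1.68, adjusted p 0.000766, SE 0.29), Ccr8, a chemokine receptor of tissue regulatory T cells (-1.56, adjusted p 0.00665, SE 0.36), and Tnfrsf9, the costimulatory receptor 4-1BB (-1.52, adjusted p 0.0146, SE 0.39). Ccr8 was at 6.29 ± 4.57 TPM (n = 5) on CHOW and 1.21 ± 0.649 TPM (n = 6) on HFD, with overlap. Also lower were Tnfrsf4 (-1.50, adjusted p 0.00234, SE 0.29) and Tnfrsf18 (-1.11, adjusted p 0.000292, SE 0.17), which encode the costimulatory receptors OX40 and GITR. The remaining calls, named after their values were seen, were the transcription factors Gata3 (-1.27), Batf (-0.91), Irf4 (-0.85) and Prdm1 (1.34). Of the genes tied to regulatory T cells of fat in particular, Il1rl1 (ST2) was at 41.6 ± 7.40 and 58.4 ± 20.5 TPM and differed by 0.42 (adjusted p 0.363, SE 0.30). Pparg was at 50.0 ± 7.89 and 49.3 ± 5.73 TPM (-0.01, adjusted p 0.98, SE 0.23). Both are also expressed by other SVF cells, and their levels were more than 10 times those of Foxp3. The same limit holds for genes of this list that were called lower. On HFD at 20 weeks Batf was at 28.7 ± 1.78 TPM and Irf4 at 23.1 ± 5.65 TPM, against 0.670 ± 0.389 TPM for Foxp3. Which cells carried the calls of this list was not tested.

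In the other comparisons this list held calls only from 8 to 20 weeks on HFD. It had 0 of 27 at 8 weeks, 0 of 27 from 8 to 20 weeks on CHOW, 0 of 27 in the interaction and 0 of 26 at 34 weeks. Of all genes 0.0238%, 0.613%, 0.297% and 0.243% were called there. In the last 3 of these, 7, 7 and 6 had an unadjusted p under 0.05, beside 12.5%, 13.8% and 13.2% of all genes. From 8 to 20 weeks on HFD 3 of 27 rose and 2 fell, beside 8.78% of all genes called. The largest were Il10 (2.31, adjusted p 0.00718, SE 0.51), a suppressive cytokine that macrophages also make, Prdm1 (1.87, adjusted p 0.00158, SE 0.34) and Ccr8 (-1.27, adjusted p 0.0233, SE 0.34). Tnfrsf4 and Tnfrsf18, at -0.46 (adjusted p 0.299, SE 0.28) and -0.34 (adjusted p 0.178, SE 0.16), were not called.

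Of 12 genes tested in the IL-2 receptor pathway, 3 were called at 20 weeks, beside 14.3% of all genes. Il2rb, the beta chain that pairs with CD25, was lower on HFD (-0.83, adjusted p 0.0103, SE 0.20). Il7r (1.52, adjusted p 0.0034, SE 0.31) and the cytokine Il15 (0.95, adjusted p 0.00983, SE 0.23) were higher. Il2 itself did not reach the filter, and no library listed it above 0.523 TPM. From 8 to 20 weeks Stat5a and Il15ra rose on both diets, by 1.53 and 1.86 on CHOW (adjusted p 0.00575 and 0.0167) and by 1.07 and 1.24 on HFD (0.0033 and 0.0149). Among 10 ligands and partner receptors tested, 1 was called at 20 weeks. It was Cd86, a ligand of CTLA-4, at 74.7 ± 10.3 TPM (n = 5) on CHOW and 36.2 ± 4.17 TPM (n = 6) on HFD (-1.02, adjusted p 0.00441, SE 0.22). Icosl differed by -0.60 (adjusted p 0.19, SE 0.30). On HFD from 8 to 20 weeks 3 of the 10 fell and 1 rose, beside 8.78% of all genes called. Among the largest were Cd226, which competes with TIGIT for its ligand (-1.79, adjusted p 9.18e-05, SE 0.25), and that ligand, Pvr (0.85, adjusted p 0.0152, SE 0.21). Ikzf3 (Aiolos) was the only one of the 3 other Ikaros genes to be called (-0.86, adjusted p 0.0193, SE 0.23).

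Genes of other cells that could carry the 8 transcripts were set beside them, with 14.3% of all genes called at 20 weeks in either direction. At 20 weeks 0 of 8 NK cell genes were called by limma (2 with an unadjusted p under 0.05, as had 30.5% of all genes), with a list median of -0.33 and sums of 21.1 to 30.9 TPM on CHOW and 7.50 to 24.4 TPM on HFD. Of 8 tested ILC2 and type 2 genes, 1 was called, the cytokine Il5 (-2.02, adjusted p 0.0199, SE 0.55). Of 7 CD8 and cytotoxic genes, only Gzmb was called and was higher on HFD (1.33, adjusted p 0.000328, SE 0.21), and Cd8a differed by 0.54 (adjusted p 0.123, SE 0.23). Macrophage genes were called higher on HFD in 5 of 10 cases and none was called lower. Adipocyte genes had 6 lower and 1 higher of 10, SVF stromal genes 3 lower of 7 and germ cell genes 2 higher of 10. Erythroid genes were lower on HFD in 5 of 5, with sums of 27334 to 130027 TPM on CHOW and 12622 to 30448 TPM on HFD. B cell genes had 1 of 10 called (Cd22, higher), and 2 of 4 tested lymph node stroma genes were lower (Cxcl13 and Ccl19). Dendritic cell genes had Itgax higher (2.94) and Cd209a lower (-2.95) of 9. The median log2 fold changes of the adipocyte (-1.01), lymph node stroma (-1.53) and erythroid genes (-1.74) were below that of the 8. The part of these genes' cells in the results for the 8 was not tested. At 34 weeks all lists together had 2 calls, while 0.243% of all genes were called. They were Il13 (2.29, adjusted p 0.0358, SE 0.38) and the B cell gene Cd79a (0.89, adjusted p 0.0461, SE 0.16).

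**Figure D4:**
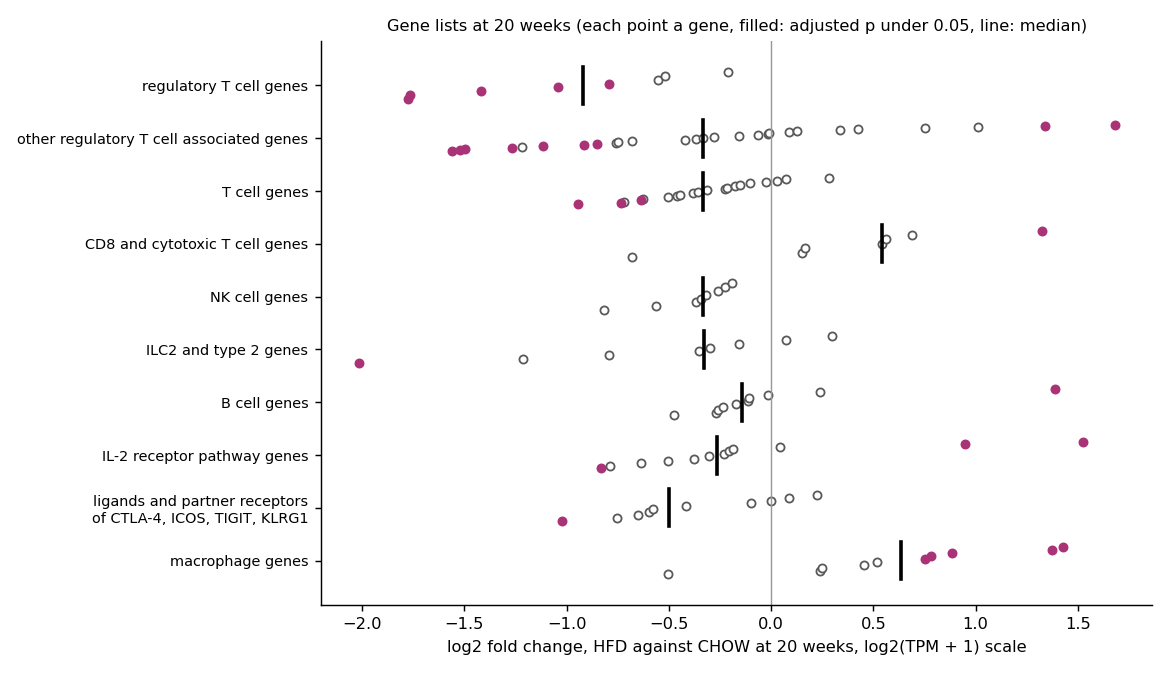
Log2 fold change of HFD against CHOW at 20 weeks on the log2(TPM + 1) scale (horizontal axis) for the tested genes of 10 lists; each point is a gene, filled points passed an adjusted p of 0.05, and the vertical line is the list's median. The 8 genes described here have a median of -0.92, against -0.33 for the T cell genes and 0.64 for the macrophage genes.

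The genes whose level followed that of Foxp3 most closely were sought among 13909 genes, by the lower of the Pearson r values over the 21 libraries of 8 and 20 weeks and over the 13 libraries of 34 weeks. The points share their groups, so r is also given for the first 2 genes and for Klrg1 after group means were subtracted. Tnfrsf4 came first, with r of 0.827 and 0.746 (0.577 and 0.811 after subtraction), and Tnfrsf18 second, with 0.722 and 0.839 (0.545 and 0.862). Next were the MHC class I genes H2-Q7 (0.705 and 0.694) and H2-Q6 (0.689 and 0.720), close paralogs between which reads may be divided uncertainly, and Igkv4-68 (0.681 and 0.763), an immunoglobulin segment with the same reservation. By Spearman rho 3 of these 5 stayed among the first 5. Of the other genes described here, Ctla4 ranked 6 (0.680 and 0.672) and Il2ra 10 (0.816 and 0.615). Icos ranked 57 and Tigit 409. Ikzf4, Ikzf2 and Klrg1 ranked 1084, 1176 and 1634. Klrg1 followed Foxp3 over 8 and 20 weeks (0.775) but less so at 34 weeks (0.220). After subtraction its r was 0.433 and 0.220, and the difference was not tested. Over the 28 pairs among the 8 genes the median r was 0.462 at 8 and 20 weeks and 0.428 at 34 weeks. After subtraction of group means the medians were 0.357 (-0.0997 to 0.752) and 0.536 (-0.0842 to 0.924). Of the 28 pairs, 26 and 27 were then above 0. Pairs of other genes were not examined, so these values have no background.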

How the data were processed

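RNA of the SVF was sequenced as stranded mRNA libraries. The authors quantified the reads with Salmon against gencode M10 (mm10) and deposited TPM values in 2 tables, one of 8 and 20 weeks (21 libraries) and one of 34 weeks (13 libraries). Versions of Trimmomatic, Salmon and the other tools are not stated in the sources at hand. No counts were used here, so read depth is unknown and no counting error could be given. Gene names were taken from gencode M21, which matched 31791 of 32098 identifiers, 24748 of them with the same version.

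Each table was analysed apart with limma 3.58.1 (R 4.3.3, eBayes with a mean-variance trend) on log2(TPM + 1). Genes entered with at least 1 TPM in at least 4 (8 and 20 weeks) or 6 libraries (34 weeks). P-values were adjusted over all genes tested by the Benjamini-Hochberg method, 2-sided, and genes under 0.05 were called. A table's groups shared 1 variance estimate. TPM of a group are mean ± SD. Python 3.11.15 was used for summaries and promoter searches. The fits were tested on simulated data. Alternatives were another pseudocount and filters, scalings, quality weights, covariates, the replicate number as a block, fits of the compared groups alone, and fits without 1 library or without libraries high in outside RNA.

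The 8 genes and the other gene lists were chosen with earlier results of these data known. From each other list, up to 3 called genes with the largest change in a comparison are named, besides Cd3e, Cd4, Cd8a, Il1rl1, Pparg, Ccr8, Il2 and Icosl, and the 5 genes most like Foxp3. Besides these, 1 gene that the rule would name is not reported here. Outside RNA was called high above 20% hemoglobin, 2000 TPM of germ cell genes, 1000 TPM of seminal vesicle genes or 1000 TPM of Adipoq.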

Additional observations from a re-analysis of the deposited data

Results flagged for a closer look

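Among 48 combinations of gene and group, 4 held a library far from the rest of its group by Dixon's criterion, which chance gives in about 1 of 20 groups. Foxp3 was low in CHOW 8 week replicate 1, at 0.647 TPM, where the other 3 libraries held 0.964 to 0.985 TPM. Icos was high in HFD 8 week replicate 5, at 9.84 TPM. Ctla4 was high in HFD 34 week replicate 4, at 39.8 TPM. Klrg1 was listed at 0 TPM in CHOW 34 week replicate 4. The effect of HFD differed between 20 and 8 weeks for Foxp3 and for Klrg1, by -1.93 on the log2 scale in each case, in limma's test of the interaction (adjusted p 0.0308 and 0.0391). Of 21 fits without 1 library, 9 kept the call of Foxp3 and 6 that of Klrg1.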

How the results depend on the processing

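Of 1081 recomputed log2 fold changes of the 8 genes, 979 kept their side of the threshold, 77 lost the call and 25 gained it, and no called value changed sign. At 20 weeks 5 of the 8 were called (2405 of all genes), 3 with the T cell score (646) and 0 with the adipocyte score as covariate (39), and 3 to 5 without 1 library. With the adipocyte score the log2 fold changes of Foxp3, Il2ra and Klrg1 were still -1.45, -1.38 and -1.33, with larger errors. At 8 weeks the count was 0 throughout. At 34 weeks it was 0, also without any 1 library, and 1 with quality weights. From 8 to 20 weeks on CHOW it was 0, but 1 under either scaling, in the fit of the compared groups alone and without the libraries high in outside RNA, 6 with quality weights, and 0 to 3 without 1 library. The 20 week replicate 2 of CHOW gave the 3. From 8 to 20 weeks on HFD it was 3, but 1 with no filter or in the compared groups alone, 0 with the adipocyte score or without the libraries high in outside RNA, and 1 to 3 without 1 library. The interaction had 2 calls, 0 with no filter or with a filter at 5 TPM (where Foxp3 was not tested), 1 with the adipocyte score or without the libraries high in outside RNA, and 0 to 3 without 1 library. Where settings are not named, the count stayed within 1.5 times. Of the 5 genes most like Foxp3, 3 were shared under Spearman rho. For Foxp3 at 34 weeks, which was not tested, the fit with no filter alone gave a value.

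With the replicate number as a block, the interaction had 1 call among the 8 genes (Il2ra, adjusted p 0.043), with 0.0602 for Foxp3 and 0.0689 for Klrg1, and the counts of the other comparisons stayed within 1.5 times. Same-numbered libraries correlated weakly in their deviations from the group means, with a median of 0.0716 over 28 pairs at 8 and 20 weeks (-0.03 in other pairs) and 0.0888 over 6 pairs at 34 weeks (-0.02 in other pairs). Of these pairs 13 and 3 were above 0.1, and 10 of 21 and 6 of 13 libraries correlated best with their own number, a hint from the data. How many would do so by chance was not worked out. Since not every pair was above 0.1 and the labels name no shared animal or batch, the numbers were not taken to pair the samples.

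Fewer calls with no filter came with more genes to adjust over, and fits without libraries had fewer samples. The cause of these and the other changes was not tested. The T cell and adipocyte scores themselves moved with diet. Low TPM of Foxp3 at unknown depth limits its precision, most of all at 34 weeks.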

Other observations

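While Il2ra and Klrg1 fell from 8 to 20 weeks on HFD, 4 of 7 CD8 and cytotoxic genes rose and none fell in limma's test. Over all genes 8.78% were called, 1029 of 1475 of them higher. That direction moved with processing: 1118 of 2745 calls were higher with quantile normalization, and 295 of 663 without the libraries high in outside RNA. Without those libraries the calls of Il2ra and Klrg1 were lost (adjusted p 0.11 and 0.109). That check is not given for the CD8 and NK cell genes. Gzmb, which encodes the cytotoxic protease granzyme B, went from 5.70 ± 1.25 to 20.6 ± 6.65 TPM (n = 6 in each), a log2 change of 1.65 (adjusted p 2.06e-05). Cd8a, a chain of the CD8 coreceptor, went from 0.769 ± 0.257 to 1.95 ± 0.538 TPM (0.73, adjusted p 0.0468), and Cd8b1 and Gzmk also rose (0.81 and 1.02). Of 8 NK cell genes, 2 fell: Gzma, another granzyme, from 16.5 ± 1.83 to 4.12 ± 2.22 TPM (-1.89, adjusted p 3.16e-05), and Klri2 (-0.61, adjusted p 0.0495). On CHOW none of these 6 genes was called over the same time (adjusted p 0.138 at the least). The means of Gzma and Klri2 were also lower at 20 than at 8 weeks there. Gzma went from 12.1 ± 2.13 TPM (n = 4) to 6.14 ± 1.90 TPM (n = 5), and Klri2 from 2.36 ± 0.599 to 1.78 ± 0.925 TPM. The difference between the diets was called for Gzmb (1.52, adjusted p 0.0308).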
